A study of Mus musculus with 8 samples.

Results

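Transcripts of 10 marker genes of tuft cells were followed in the upper intestine of mice whose gut epithelium lacked Pdx1, which encodes a homeodomain protein needed for pancreas and duodenum development. The genes were Pou2f3, Gfi1b, Dclk1, Avil, Trpm5, Plcb2, Il17rb, Alox5ap, Hpgds and Ptgs1. Every probe set was taken whose only gene symbol in the platform annotation was one of these. This gave 19 of the 45037 probe sets tested, from 9 of the 10 genes. The annotation named 18193 genes in all. Ptgs1 had no probe set that carried it as a single symbol and was not analysed here.

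There were 4 KO mice, of genotype Pdx1flox/flox;VilCre, and 4 Ctrl mice, Pdx1flox/flox without the Cre transgene. Both groups were homozygous for Pdx1 alleles with loxP sites around exon 2, so the Cre transgene was present in the KO mice alone. A 12.4 kb fragment of the mouse villin 1 promoter drove Cre, and this promoter is active in the epithelium, so muscle, nerve and immune cells of the KO tissue would keep their Pdx1 alleles. All mice were males of 6 months on a standard diet with 4.5% fat, and the labels call each one a brother from a shared litter. RNA came from the whole 5 cm of intestine next to the pylorus, with 1 mouse on each Affymetrix array. Each value is a mixture of all cells of the tissue, in which tuft cells are rare, and fewer cells of a type cannot be told apart from less RNA per cell.

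Tuft cells are solitary chemosensory cells of the epithelium. The transcription factor POU2F3 is required for their formation. They sense luminal metabolites and parasites through receptors coupled to G proteins, the phospholipase PLCB2 and the cation channel TRPM5, a cascade shared with taste cells. In the small intestine they are the main source of the cytokine IL-25, which acts on innate lymphoid cells, and the IL-13 those cells release feeds back on the crypt and raises the numbers of tuft and goblet cells. Tuft cells also make leukotrienes and prostaglandins. None of the 10 genes belongs to tuft cells alone: Alox5ap and Hpgds are also made by mast cells and other leukocytes, Gfi1b by erythroid cells and megakaryocytes, Plcb2 by leukocytes and Dclk1 by neurons.

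RefSeq promoter sequences of GRCm38.p6, which run from 250 bases before to 50 bases after an annotated start, were found for 7 of the 9 measured genes, 8 sequences in all. Those of Dclk1, Il17rb and Hpgds are shown because the mouse-to-mouse correlations described later turn on these transcripts, and that of Trpm5 because its order of mice was another. Each is written 5′ to 3′ on the strand of its gene. Capitals mark TAAT (or ATTA, the same letters on the other strand), the core that homeodomain proteins bind, and ATGCAAAT (or ATTTGCAT), the octamer of POU factors. The files do not say which Dclk1 start the probe sets read.
Dclk1 upstream start, chr3:55242114-55242413, plus strand: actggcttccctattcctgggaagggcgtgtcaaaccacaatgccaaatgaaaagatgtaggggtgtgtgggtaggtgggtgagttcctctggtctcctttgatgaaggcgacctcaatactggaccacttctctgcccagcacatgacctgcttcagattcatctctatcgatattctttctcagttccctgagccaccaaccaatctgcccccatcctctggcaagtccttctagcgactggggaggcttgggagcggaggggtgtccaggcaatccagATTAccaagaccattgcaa
Dclk1 downstream start, chr3:55461478-55461777, plus strand: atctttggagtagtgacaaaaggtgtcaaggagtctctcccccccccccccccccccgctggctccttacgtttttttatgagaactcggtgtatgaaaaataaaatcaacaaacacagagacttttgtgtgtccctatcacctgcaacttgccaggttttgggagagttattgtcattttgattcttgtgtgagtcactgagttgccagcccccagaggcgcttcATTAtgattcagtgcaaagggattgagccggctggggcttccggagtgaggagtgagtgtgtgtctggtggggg
Il17rb, chr14:30008847-30009146, minus strand: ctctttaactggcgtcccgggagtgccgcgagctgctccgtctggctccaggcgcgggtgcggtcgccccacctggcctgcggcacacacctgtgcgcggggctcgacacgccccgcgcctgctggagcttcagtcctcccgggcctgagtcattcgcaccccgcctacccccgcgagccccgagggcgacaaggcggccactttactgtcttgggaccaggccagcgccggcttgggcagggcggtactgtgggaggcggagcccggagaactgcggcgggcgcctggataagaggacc
Hpgds, chr6:65144681-65144980, minus strand: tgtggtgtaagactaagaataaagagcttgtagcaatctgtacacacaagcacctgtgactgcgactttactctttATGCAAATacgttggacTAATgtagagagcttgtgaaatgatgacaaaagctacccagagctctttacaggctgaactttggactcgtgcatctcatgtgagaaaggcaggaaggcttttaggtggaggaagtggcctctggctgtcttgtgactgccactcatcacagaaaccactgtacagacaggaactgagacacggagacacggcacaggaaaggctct
Trpm5, chr7:143094593-143094892, minus strand: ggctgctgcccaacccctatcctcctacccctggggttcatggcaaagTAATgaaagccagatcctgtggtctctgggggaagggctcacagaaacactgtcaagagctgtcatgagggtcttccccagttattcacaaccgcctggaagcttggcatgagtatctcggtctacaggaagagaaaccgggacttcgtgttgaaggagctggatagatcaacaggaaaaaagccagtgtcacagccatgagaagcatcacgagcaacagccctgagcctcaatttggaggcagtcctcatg
TAAT was present in 6 of the 8 member promoters, and in 58.0% of all 32851 RefSeq promoters of this length. The octamer was present in 1 of the 8, that of Hpgds, where it begins 174 bases before the start, and in 1.74% of all promoters. In Hpgds the TAAT begins 157 bases before the start, in Trpm5 202 bases before it, and in the downstream Dclk1 promoter 24 bases before it. In the upstream Dclk1 promoter the match lies within the transcribed part, and the Il17rb window held neither set of letters. These matches describe the letters and are not evidence of binding. The promoters of Gfi1b and Avil held TAAT and that of Plcb2 held neither motif. Alox5ap and Pou2f3 were not among the promoter sequences used.

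Pdx1 was lower in each KO mouse than in each Ctrl mouse. On the log2 scale its brighter probe set read 6.04, 5.91, 6.18 and 5.58 in KO mice 1 to 4, against 8.33, 8.61, 8.16 and 8.98 in Ctrl mice 1 to 4. The log2 difference, KO minus Ctrl, was -2.59 (adjusted p = 4.16e-04 in limma), and with values under 5 set to 5 across the table it was -2.59 as well but no longer passed (adjusted p = 0.0833). Vil1, whose promoter drives Cre, read 12.79 ± 0.059 in KO and 12.60 ± 0.092 in Ctrl mice (SD, n = 4 each; difference 0.19, adjusted p = 0.660 in limma). Enterocyte genes were bright: Apoa1 read 14.68 ± 0.069 in KO and 14.50 ± 0.071 in Ctrl mice (SD, n = 4 each). All 8 measured enterocyte markers lay above 5.25, the median of all values. So did 6 of 7 gastric and 7 of 7 exocrine pancreas genes. The gastric gene Gkn1 averaged 12.83 in KO and 13.09 in Ctrl mice, and the pancreatic gene Cela1 13.31 and 13.54. The share of stomach and pancreas tissue in each sample was not tested. Array medians lay between 5.23 and 5.27, and pairs of arrays correlated at r = 0.990 to 0.996. KO mouse 3 and Ctrl mouse 2 deviated from their group means in the same direction over all probe sets (r = 0.60 across probe sets), and were the lowest of their groups for Dclk1. The labels give no extraction or array batch.

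No tuft cell gene passed the test between genotypes. Of 19 probe sets 0 passed an adjusted p under 0.05 in limma, against 0.0422% of all probe sets (19 of 45037). Of those 19 called probe sets of the series, 2 were higher in KO, 0.00444%, and 17 lower, 0.0377%, and none was a tuft cell probe set. An unadjusted p under 0.05 was reached by 1 of 19, against 7.13% of all probe sets. KO and Ctrl values overlapped in every tuft cell probe set, whereas the groups were separated in 4.43% of all probe sets. Estimates lay above 0 in 11 and below 0 in 8 of the 19, and above 0 in 50.0% of all probe sets. With the brightest probe set of each gene, 4 genes lay above 0 and 5 below, with a median log2 difference of -0.0044, beside 4.75e-05 over all probe sets. All 19 adjusted p-values lay between 0.676 and 0.995.

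The 95% confidence intervals set the precision. Over the 19 probe sets they ran from -0.55 to 0.85, that is from 0.685-fold to 1.81-fold, and 2 of them, of the brightest Dclk1 and Trpm5 probe sets, reached past a 1.5-fold difference. These outer bounds come from different probe sets, and others were narrower, such as -0.22 to 0.21 for Avil. Differences within a probe set's own interval could not be resolved with 4 mice in each group. A p that misses the threshold does not show that the groups were equal. Of the 9 genes, 6 had a brightest probe set above the median of all values. Gfi1b, Hpgds and Plcb2 did not, and a dim probe set carries an unknown share of background, so a change in it can be understated.

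**Figure D1:**
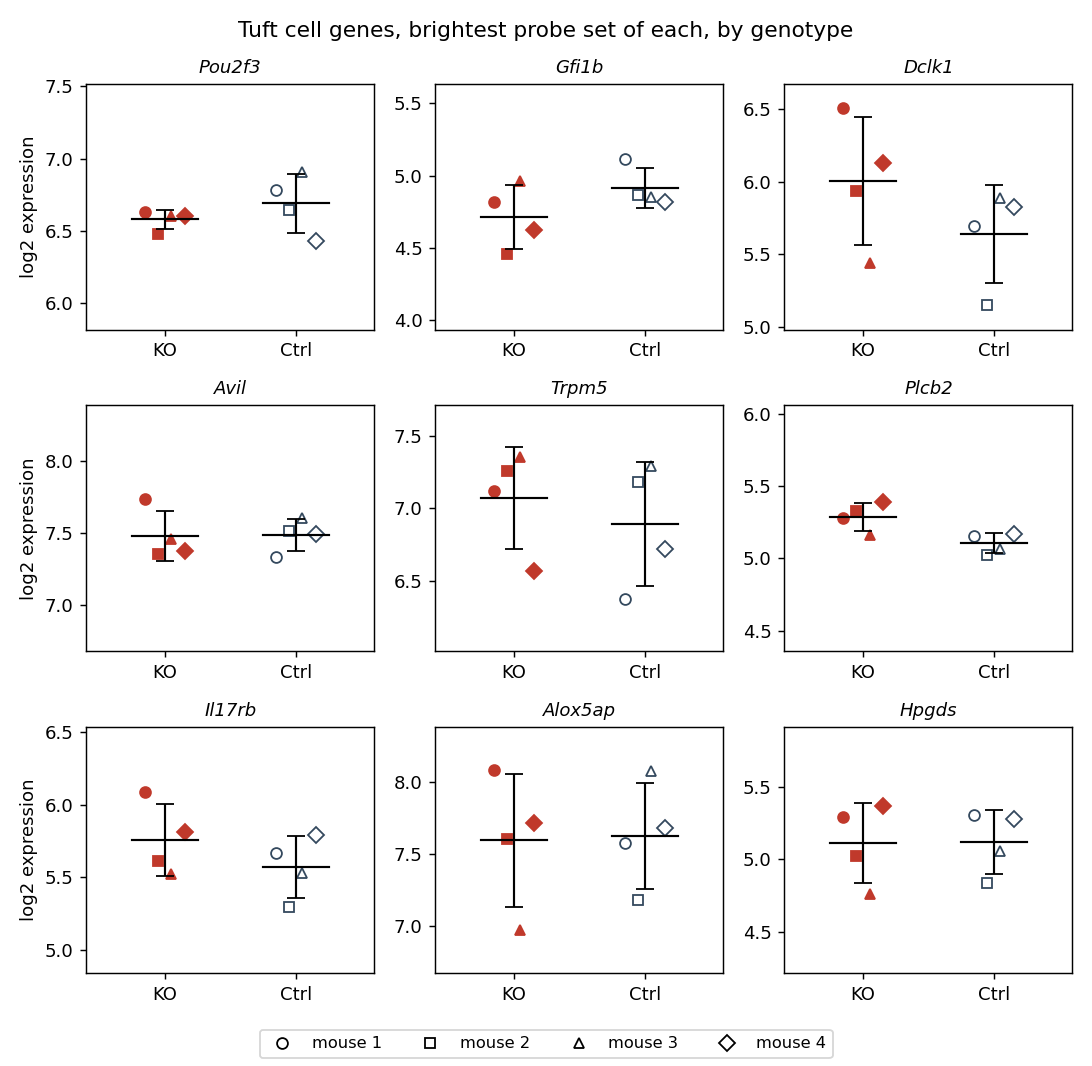
Log2 expression of the brightest probe set of each of 9 tuft cell genes (y axis, the same span in every panel) in KO mice (filled, left) and Ctrl mice (open, right). Points are mice, with a symbol for each replicate number, and bars show the mean ± SD (n = 4 each). The numbers were not used here to pair mice across groups. The groups overlap in every panel, with Dclk1 and Alox5ap the most spread in KO mice and Trpm5 in Ctrl mice.

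Among the transcription factors, both read slightly lower on average in KO and neither passed. Pou2f3, the factor required for tuft cells, read 6.63, 6.48, 6.60 and 6.60 in KO mice, against 6.78, 6.65, 6.91 and 6.43 in Ctrl mice. The KO values lay within the Ctrl range. The log2 difference was -0.11 with a standard error of 0.099, a 95% interval of -0.33 to 0.11 and an adjusted p of 0.854 in limma. Gfi1b, a zinc finger repressor of blood lineages that tuft cells share, read 4.82, 4.46, 4.96 and 4.63 in KO mice, against 5.12, 4.87, 4.85 and 4.81 in Ctrl mice. KO mice 2 and 4 lay below every Ctrl mouse and the other two did not. Its difference was -0.20, with a 95% interval of -0.45 to 0.053 (adjusted p = 0.756 in limma), the lowest estimate of the 19.

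Of the genes of structure and signalling scaffold, Dclk1 had the largest estimate and did not pass. DCLK1, a kinase that binds microtubules and the marker most used for tuft cells, had 9 probe sets. The brightest read 6.51, 5.94, 5.44 and 6.13 in KO mice, against 5.70, 5.15, 5.89 and 5.83 in Ctrl mice. KO mice 1, 2 and 4 lay above every Ctrl mouse, and KO mouse 3 below 3 of the 4. The means were 6.00 ± 0.44 in KO and 5.64 ± 0.34 in Ctrl (SD, n = 4 each), and the log2 difference was 0.37 with a standard error of 0.22 and a 95% interval of -0.12 to 0.85 (adjusted p = 0.772 in limma). Leaving out 1 mouse moved it between 0.20, without KO mouse 1 or Ctrl mouse 2, and 0.55, without KO mouse 3. The other Dclk1 probe sets were dimmer, and over all 9 the estimates were above 0 in 7 and below 0 in 2. They did not read alike: the second brightest followed the brightest over mice (r = 0.92, exact permutation p = 0.00285, 0.0150 after adjustment over 10 such comparisons), and r was as low as -0.37 for another. AVIL, an actin-binding protein of the villin family found in the tuft, read 7.73, 7.36, 7.46 and 7.38 in KO mice, against 7.33, 7.51, 7.60 and 7.50 in Ctrl mice. Its values overlapped throughout, with a difference of -0.0044 and a 95% interval of -0.22 to 0.21 (adjusted p = 0.995 in limma).

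Of the chosen marker genes, Trpm5 and Plcb2 belong to the taste-like cascade, and neither passed. Trpm5, the calcium-activated channel at the end of this cascade, read 7.12, 7.26, 7.35 and 6.56 in KO mice, against 6.37, 7.18, 7.29 and 6.72 in Ctrl mice. KO mouse 4 and Ctrl mouse 1 read lowest in their groups, and the values overlapped. The difference was 0.18 with a standard error of 0.22 and a 95% interval of -0.30 to 0.66 (adjusted p = 0.896 in limma). Leaving out 1 mouse moved it between 0.0069, without Ctrl mouse 1, and 0.35, without KO mouse 4. Of the 2 other Trpm5 probe sets, the brighter gave 0.085 (adjusted p = 0.956 in limma) and followed the brightest over mice (r = 0.88, exact permutation p = 0.00300, adjusted p = 0.0150). The dimmest gave -0.029 (adjusted p = 0.967 in limma). Plcb2, the phospholipase upstream of the channel, read 5.28, 5.32, 5.16 and 5.39 in KO mice, against 5.16, 5.03, 5.07 and 5.17 in Ctrl mice. KO mouse 3 lay within the Ctrl range and the other KO mice above it. It was the only probe set of the 19 with an unadjusted p under 0.05, at 0.18 with a standard error of 0.072 and a 95% interval of 0.023 to 0.34 (unadjusted p = 0.0292, adjusted p = 0.676 in limma).

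Il17rb encodes a chain of the IL-25 receptor, carried by tuft cells and by innate lymphoid cells. It read 6.09, 5.61, 5.52 and 5.81 in KO mice, against 5.67, 5.29, 5.53 and 5.79 in Ctrl mice. KO mouse 1 was the highest and Ctrl mouse 2 the lowest of all 8. The difference was 0.19 with a 95% interval of -0.12 to 0.49 (adjusted p = 0.810 in limma).

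Both lipid mediator genes had estimates near 0. Alox5ap encodes the protein that presents arachidonic acid to 5-lipoxygenase for leukotriene synthesis, and read 8.08, 7.61, 6.98 and 7.71 in KO mice, against 7.57, 7.18, 8.07 and 7.68 in Ctrl mice. Its range within KO, 1.10, was the widest of the 19 probe sets, and its difference was -0.033 with a 95% interval of -0.55 to 0.48 (adjusted p = 0.986 in limma). Hpgds makes prostaglandin D2, and read 5.29, 5.02, 4.76 and 5.37 in KO mice, against 5.31, 4.83, 5.06 and 5.28 in Ctrl mice. The values overlapped, at a difference of -0.0073 with a 95% interval of -0.33 to 0.32 (adjusted p = 0.995 in limma).

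**Figure D2:**
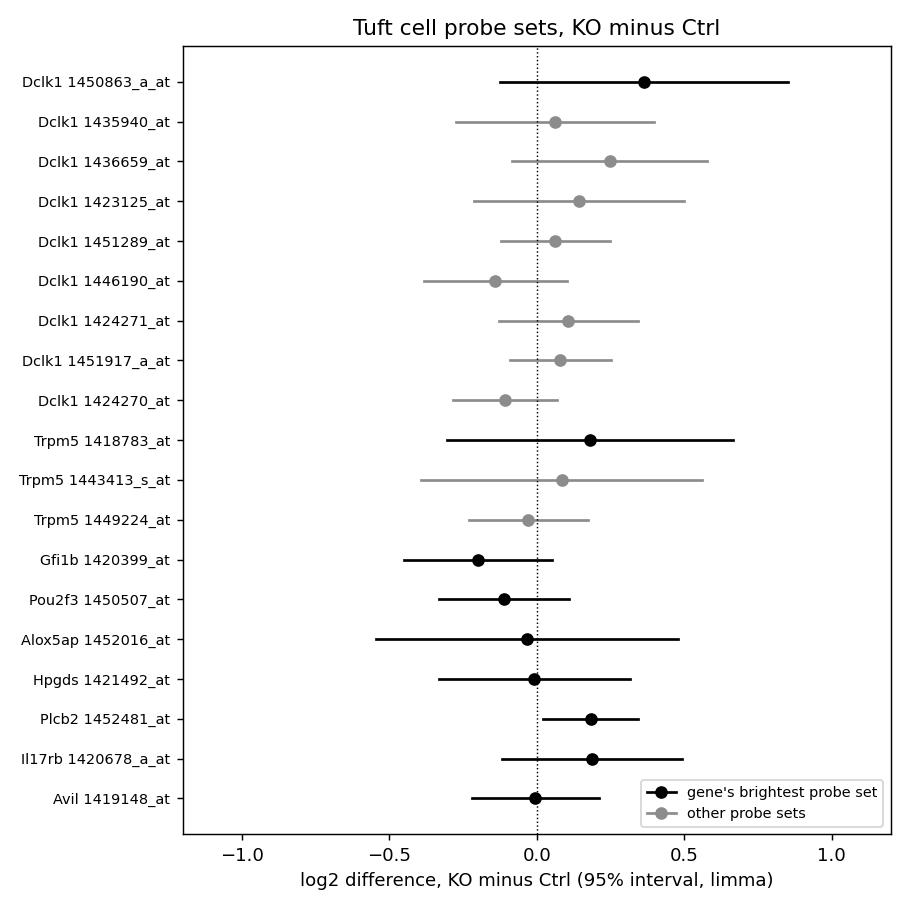
Log2 difference, KO minus Ctrl, with its 95% confidence interval from limma (x axis) for each of 19 probe sets (y axis), 4 mice in each group. Black marks the brightest probe set of a gene and grey its others, and Plcb2 is the sole probe set whose interval leaves out 0.

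Other genes of tuft cells did not pass either. Of 27 measured of 32 listed, 0 passed in either direction in limma, 15 estimates lay above 0 and 12 below, and the median was 0.0092. An unadjusted p under 0.05 was reached by 4 of 27, beside 7.13% of all probe sets, and the groups were separated in 2, Chat and Ptpn6, beside 4.43% of all probe sets. Chat, the acetylcholine-making enzyme of tuft cells and of enteric neurons, read 5.43, 5.17, 5.37 and 5.36 in KO mice, against 5.62, 5.63, 5.50 and 5.63 in Ctrl mice. The difference was -0.26 (adjusted p = 0.561 in limma). Ptpn6, a phosphatase of leukocytes that tuft cells also express, averaged 8.84 ± 0.083 in KO and 8.65 ± 0.045 in Ctrl (SD, n = 4 each; difference 0.19, adjusted p = 0.630 in limma). Il25, the cytokine itself, was chosen after its values were seen. It read 3.60 to 3.92 in KO mice and 3.63 to 3.93 in Ctrl mice, well below the median of all values.

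The genes around the lipid mediators and the type 2 circuit were also looked at. Of 19 measured of 20 listed eicosanoid enzymes and receptors, 0 passed, 11 estimates lay above 0 and 8 below, and the median was 0.062. The groups were separated in 2 of the 19, Lta4h among them, beside 4.43% of all probe sets. Lta4h, the hydrolase that makes leukotriene B4, averaged 11.66 ± 0.054 in KO and 11.45 ± 0.063 in Ctrl, with no overlap between groups (difference 0.21, adjusted p = 0.569 in limma). Ptger4, a prostaglandin E2 receptor, averaged 9.92 ± 0.12 in KO and 9.73 ± 0.16 in Ctrl, and its groups overlapped (difference 0.19, adjusted p = 0.735 in limma). Of 15 measured of 17 listed genes of the type 2 circuit, 0 passed, 8 estimates lay above 0 and 7 below, and the median was 0.024. Il17ra, the shared receptor chain that pairs with IL17RB, averaged 7.39 ± 0.11 in KO and 7.16 ± 0.097 in Ctrl (difference 0.23, adjusted p = 0.625 in limma). Gata3, a transcription factor of type 2 lymphocytes, averaged 3.90 ± 0.041 in KO and 3.78 ± 0.067 in Ctrl (difference 0.12, adjusted p = 0.737 in limma). Its values lay well below the median of all values. The groups were separated in 2 of these 15 genes, Il17ra and Gata3, beside 4.43% of all probe sets.

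Marker lists of other cells that could carry these transcripts had 0 genes that passed in limma, and their summed levels are given on the linear scale. Of 12 mast cell genes 5 lay above 0 and 7 below (median -0.035), with sums of 647 to 712 in KO and 632 to 655 in Ctrl mice. The groups were separated in 2 of the 12, beside 4.43% of all probe sets. The mast cell protease Mcpt1 read 6.33, 6.45, 6.50 and 6.35 in KO mice, against 5.89, 6.21, 5.90 and 6.13 in Ctrl mice, a difference of 0.37 with no overlap (adjusted p = 0.476 in limma). Tpsab1, a tryptase of mast cells, lay the other way without overlap, at -0.25 (adjusted p = 0.648 in limma). Of 5 measured eosinophil genes 1 lay above 0 (median -0.084), all were dimmer than the median of all values, and sums were 83.5 to 103 in KO and 89.2 to 111 in Ctrl mice. The granule protein gene Prg2 was at -0.45 (-0.19 without KO mouse 1, and -0.60 without KO mouse 2). The receptor chain Il5ra was at 0.24. The adjusted p of Prg2 and Il5ra was 0.737 and 0.691 in limma.

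Of 10 macrophage genes 9 lay above 0 (median 0.065), with Mrc1 at 0.21 and Cd68 at 0.14 and sums of 6230 to 8129 in KO and 5985 to 7292 in Ctrl mice. Of 8 measured lymphocyte genes 6 lay above 0 (median 0.087), with the pan-leukocyte gene Ptprc at 0.26 and the B cell gene Cd79b at 0.39 and sums of 2448 to 3263 in KO and 2201 to 2831 in Ctrl mice. Erythroid and megakaryocyte genes, which mark cells that share Gfi1b, lay above 0 in 2 of 8 (median -0.045). Their sums were 409 to 512 in KO and 445 to 485 in Ctrl mice. The platelet gene Gp9 was at -0.12, and Ppbp, dimmer than the median of all values, at -0.14. Neuron and glia genes, which mark cells that share Dclk1 and Chat, lay above 0 in 2 of 9 (median -0.076). Their sums were 473 to 559 in KO and 517 to 581 in Ctrl mice, with the glial gene Gfap at -0.21 and the neuronal tubulin Tubb3 at -0.12.

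Fibroblast genes lay above 0 in 5 of 7 (median 0.037), with Lum at 0.19 and Pdgfra at -0.11 and sums of 7414 to 8391 in KO and 6699 to 8862 in Ctrl mice. Smooth muscle genes lay above 0 in 7 of 7 (median 0.21), with Actg2 at 0.52 and Tagln at 0.21 and sums of 8691 to 11519 in KO and 8200 to 9133 in Ctrl mice. Enterocyte genes lay above 0 in 7 of 8 (median 0.11), with the exception of Alpi, an alkaline phosphatase, at -0.22, and the groups were separated in 3 of 8, beside 4.43% of all probe sets. Gastric genes lay above 0 in 0 of 7 (median -0.16), with sums of 22225 to 28399 in KO and 18564 to 48962 in Ctrl mice. Gkn1 was at -0.26 (-0.018 without Ctrl mouse 2, and -0.48 without Ctrl mouse 1). Atp4a, dimmer than the median of all values, was at -0.081. Exocrine pancreas genes lay above 0 in 0 of 7 (median -0.20), with Pnliprp1 at -0.58 (-0.24 without Ctrl mouse 4, and -1.19 without Ctrl mouse 3) and Cela1 at -0.23 and sums of 55850 to 112751 in KO and 27256 to 150166 in Ctrl mice. The part of these cells and tissues in the tuft cell values was not tested.

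Within each genotype the mice varied. Dclk1 spanned 1.36 over the 8 mice, with KO mouse 1 highest and Ctrl mouse 2 lowest. Over the 36 pairs of the 9 genes, r was highest between Dclk1 and Il17rb, at 0.91 (rho = 0.81, exact permutation p = 0.00412, 0.148 after adjustment over the 36). The r was 0.58 without KO mouse 1 and Ctrl mouse 2, the mice farthest from the median. It was 0.89 after each group's mean was removed and 0.81 without KO mouse 3 and Ctrl mouse 2. Dclk1 and Alox5ap gave 0.83 (rho = 0.86, exact permutation p = 0.0129, adjusted p = 0.217), 0.74 without the farthest mice, 0.96 with group means removed and 0.61 without KO mouse 3 and Ctrl mouse 2. Dclk1 and Hpgds gave 0.73 (rho = 0.60, exact permutation p = 0.0403, adjusted p = 0.269), 0.65 without the farthest mice and 0.25 without KO mouse 3 and Ctrl mouse 2. None of the 36 pairs passed the adjustment. Trpm5 and Dclk1 gave r = -0.17, and 0.34 without KO mouse 3 and Ctrl mouse 2. Trpm5 and Hpgds gave r = -0.78 (rho = -0.86, exact permutation p = 0.0287, adjusted p = 0.258), -0.69 without Ctrl mouse 1 and KO mouse 4, and -0.80 without KO mouse 3 and Ctrl mouse 2. Of the 36 pairs, 7 changed sign without KO mouse 3 and Ctrl mouse 2, among them Alox5ap with Hpgds, at -0.16.

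**Figure D3:**
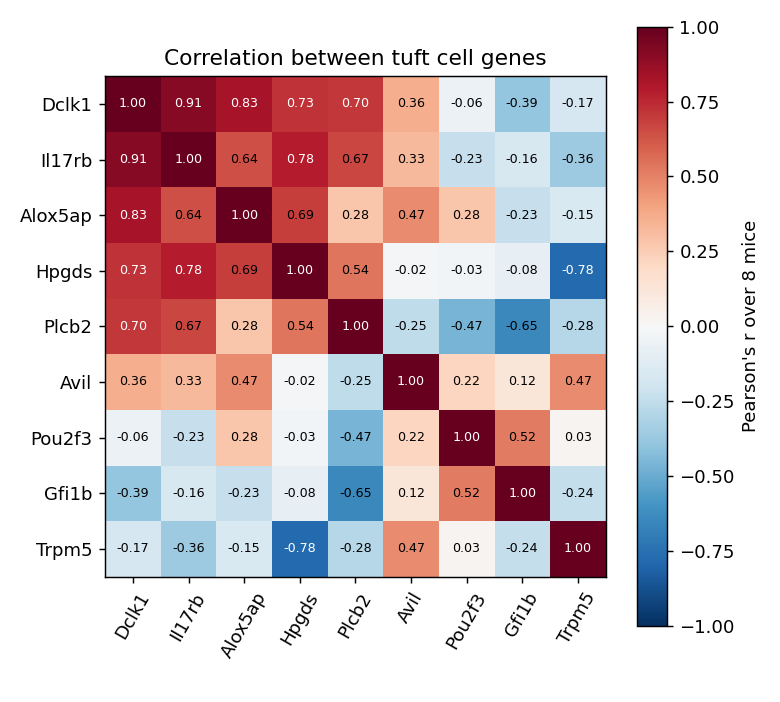
Pearson's r over 8 mice between the brightest probe sets of 9 tuft cell genes, on both axes, from -1 (blue) to 1 (red). Dclk1, Il17rb, Alox5ap, Hpgds and Plcb2 share positive values with each other, and Trpm5 is negative with each of them. Without KO mouse 3 and Ctrl mouse 2, Alox5ap turns negative with Hpgds (-0.16) and Plcb2 (-0.29), and Trpm5 positive with Dclk1 (0.34) and Alox5ap (0.60).

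Among 27 other tuft cell genes set against Dclk1, 2 passed an adjusted p under 0.05 and are named for that, after their values were seen. Rgs13, a regulator of G protein signalling, read 6.64, 5.82, 5.28 and 6.02 in KO mice, against 5.80, 5.06, 6.21 and 5.82 in Ctrl mice. It followed Dclk1 with r = 0.95 (rho = 0.93, exact permutation p = 0.00122, 0.0164 after adjustment over the 27; rank p adjusted to 0.0603). Sh2d6, an adaptor protein, read 6.22, 5.61, 5.27 and 5.76 in KO mice, against 5.67, 4.81, 5.76 and 5.52 in Ctrl mice. It followed Dclk1 with r = 0.96 (rho = 0.83, exact permutation p = 0.00102, adjusted p = 0.0164; rank p adjusted to 0.138). For both, r was 0.81 or more without KO mouse 1 and Ctrl mouse 2, and 0.86 or more without KO mouse 3 and Ctrl mouse 2. An r above 0.7 with Dclk1 was found for 8 of the 27 genes, 29.6%, and for 890 of 12228 genes brighter than the median, 7.28%. The 27 include genes of any brightness, and 5 of the 16 that were brighter than the median passed 0.7.

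**Figure D4:**
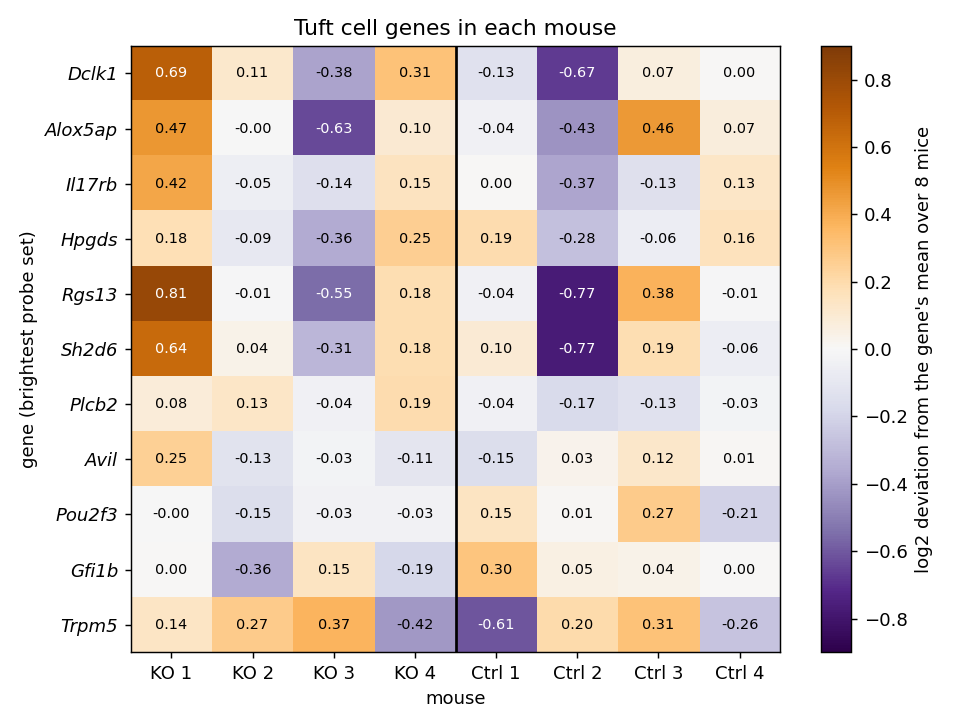
Deviation of each mouse from the gene's mean over 8 mice, in log2 units (colour and number), for 9 tuft cell genes and for Rgs13 and Sh2d6 (rows), with KO mice left of the line and Ctrl mice right of it. KO mouse 1 is high and KO mouse 3 and Ctrl mouse 2 are low in Dclk1, Alox5ap, Rgs13 and Sh2d6, and Trpm5 has another order.

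Enterocyte markers moved with Dclk1 over the same mice. The mean deviation of the 8 enterocyte genes was 0.10, 0.057, -0.076 and 0.091 in KO mice, against 0.035, -0.19, -0.0043 and -0.011 in Ctrl mice. Its r with Dclk1 was 0.92 (rho = 0.93, exact permutation p = 9.67e-04, 0.0126 after adjustment over 13 lists), 0.86 without KO mouse 1 and Ctrl mouse 2, and 0.77 without KO mouse 3 and Ctrl mouse 2. Summed enterocyte levels were 97115 to 112120 in KO and 91451 to 103995 in Ctrl mice on the linear scale. The part of this epithelial signal in the variation of Dclk1 was not tested. No other list passed the adjustment over the 13. Among these the gastric list had the largest r in size, -0.64 (rho = -0.48, exact permutation p = 0.0874, adjusted p = 0.548). That r was -0.17 without KO mouse 1 and Ctrl mouse 2, and -0.093 without KO mouse 3 and Ctrl mouse 2. The eicosanoid list gave 0.59 (rho = 0.60, exact permutation p = 0.127, adjusted p = 0.548). The neuron and glia list, whose cells also express Dclk1, gave r = 0.38 with it (rho = 0.43, exact permutation p = 0.350, adjusted p = 0.70; r = 0.67 without KO mouse 1 and Ctrl mouse 2, and -0.39 without KO mouse 3 and Ctrl mouse 2), and the mast cell list 0.27 (rho = 0.36, exact permutation p = 0.522, adjusted p = 0.70; r = 0.47 without KO mouse 1 and Ctrl mouse 2, and 0.39 without KO mouse 3 and Ctrl mouse 2).

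Among 5 array measures, Trpm5 went most closely with the array median. Its r with the array median was -0.86 (rho = -0.83, exact permutation p = 0.00253, 0.0253 after adjustment over 10 comparisons, 5 array measures with 2 genes; rank p adjusted to 0.154), and -0.58 without Ctrl mouse 1 and KO mouse 4. The medians differ little, at 5.24, 5.25, 5.23 and 5.27 in KO mice and 5.27, 5.25, 5.25 and 5.26 in Ctrl mice. KO mouse 4, the lowest KO mouse for Trpm5, also had the highest signal of the 18S rRNA control probe set. This read 8.64, 8.16, 6.84 and 11.08 in KO mice, against 8.29, 8.52, 6.84 and 8.85 in Ctrl mice. Its r with Trpm5 was -0.64 (rho = -0.74, exact permutation p = 0.0871, 0.435 after the same adjustment), and -0.73 without Ctrl mouse 1 and KO mouse 4. Marker lists were also set against Trpm5, and none of 13 passed the adjustment. The largest r was -0.85, for the eicosanoid list (rho = -0.86, exact permutation p = 0.0100, adjusted p = 0.130). The type 2 list gave 0.73 (rho = 0.83, exact permutation p = 0.0250, adjusted p = 0.163). The gastric list gave 0.68 (rho = 0.81, exact permutation p = 0.0579, adjusted p = 0.219). For each of these lists the rank p was adjusted to 0.0908. Without Ctrl mouse 1 and KO mouse 4 their r was -0.66, 0.46 and 0.44, and without KO mouse 3 and Ctrl mouse 2 -0.81, 0.66 and 0.79. The type 2 list includes Retnlb, named after its values were seen, which ranged over 7.71 log2 units and read 5.61 in KO mouse 4. The list's mean deviation was lowest in that mouse, at -0.37. The part of Retnlb in the r of the list was not tested. The part of the array median, of the 18S signal and of these lists in the Trpm5 values was not tested. With each array centred on its median, the Trpm5 difference was 0.19 (adjusted p = 0.888 in limma).

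Besides the 9 tuft cell genes, 8 genes followed the average of the 9 most closely once group means were removed. The 9 did not all move alike, and Dclk1 and Trpm5 gave r = -0.34 with group means removed. Over 8 mice and among 12223 genes brighter than the median, r with the average tuft cell pattern was 0.99 for Lpar1 and Sema7a, 0.98 for Aqp7, Acsf2 and Miga2, and 0.97 for Zbtb6, Nmu and Pygl. Sema7a, for example, read 9.27, 8.32, 8.09 and 8.81 in KO mice, against 8.36, 7.59, 8.47 and 8.17 in Ctrl mice. KO mouse 3 and Ctrl mouse 2 were the lowest of their groups for Sema7a, as for Dclk1. The 8 genes were picked as the highest of the 12223, so the values describe the choice and carry no test.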

How the data were processed

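Whole proximal intestine of 4 KO and 4 Ctrl mice was measured on Affymetrix arrays. The authors deposited log2 expression values for 45101 probe sets. The scale follows from their range. Per the submitters' processing notes Partek 6.4 was used, with no role stated. The normalization is not given in the sources used here, and since array medians are alike, a general rise or fall would go unseen. After 64 array controls were left out, KO minus Ctrl was fitted for 45037 probe sets with lmFit and eBayes of limma 3.58.1 (R 4.3.3), two-sided, with no block, and p-values adjusted over all of them by Benjamini-Hochberg. In lists and correlations a gene stands for its brightest probe set. Probe set names came from GEO's platform annotation. Correlations over 8 mice used exact permutation tests of all 40320 pairings, two-sided (scipy 1.17.1).

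Named genes are all members, Pdx1, Vil1 and, for each other list, up to 4 that passed or the 2 with the smallest p, besides genes marked as chosen after their values were seen. The members and lists were chosen with earlier results of these data known. Labels call the samples biological replicates. The script was tested on simulated data. Array number limits precision.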

Additional observations from a re-analysis of the deposited data

Results flagged for a closer look

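Chat in Ctrl mice held a value apart from the rest of its group: Ctrl mouse 3 read 5.50, and the gap to the nearest of the others was 0.909 of the group's range. Gp9, a platelet glycoprotein of the erythroid and megakaryocyte list, was similar: Ctrl mouse 3 read 6.21, with a gap of 0.833 of the range. In all, 124 groups were looked at and chance sets about 1 in 20 this far apart.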

How the results depend on the processing

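Under every alternative run, 0 tuft cell probe sets passed, and the lowest adjusted p of any was 0.562 in limma. Of 282 recomputed differences of single tuft cell probe sets, 254 kept their direction and 28 changed sign, in 6 probe sets. The cause was not tested. Over all probe sets the count was 19, 4 with values under 5 set to 5, and 2 in an ordinary linear model without pooled variances. Leaving out 1 mouse in turn gave 13 to 20, and leaving out KO mouse 3 and Ctrl mouse 2 together, chosen after seeing the data, gave 17. Hpgds turned to 0.0078 with quantile normalization, 0.0033 with median centring, 0.011 with the floor, 0.029 with array weights and 0.015 without both mice. Avil turned to 0.0062 with median centring, 0.028 with array weights and 0.012 without both mice. Alox5ap turned to 0.11 with array weights and 0.024 without both mice, and the dimmest Trpm5 probe set to 0.021 without both mice. Leaving out 1 mouse in turn gave -0.20 to 0.17 for Alox5ap, -0.088 to 0.037 for Avil, -0.060 to 0.18 for the second brightest Dclk1 probe set, -0.10 to 0.11 for Hpgds, -0.12 to 0.24 for the second Trpm5 probe set, -0.090 to 0.036 for the dimmest of Trpm5 and -0.69 to 0.097 for Cela1, a pancreatic elastase. The replicate block gave 24 probe sets, 0 of them of tuft cell genes. Deviations of same-numbered mice correlated at -0.089, -0.12, -0.18 and 0.076. With few mice in each group these values cannot exclude a pairing by number, and the main fit used none. Of the 19 probe sets, 8 had every value under 5 and gave no value with the floor, and 5 were left at a mean of at least 6.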

Other observations

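Retnlb, a goblet cell gene induced by type 2 cytokines and chosen after its values were seen, varied most in the type 2 list. It read 11.26, 10.56, 12.68 and 5.61 in KO mice, against 10.30, 11.79, 13.32 and 12.28 in Ctrl mice, a range of 7.71 log2 units. The difference of -1.89 did not pass (adjusted p = 0.789 in limma), and KO mouse 4 alone read under 10. KO mouse 4 also had the highest 18S rRNA signal, 11.08, against 6.84 to 8.85 on the other arrays, and its part in the Retnlb values was not tested.

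Ltc4s, the leukotriene C4 synthase, was chosen after its values were seen and read 8.08, 7.71, 6.49 and 8.56 in KO mice, against 7.93, 7.20, 7.86 and 8.01 in Ctrl mice. KO mouse 3 and Ctrl mouse 2 were the lowest of their groups, as in Alox5ap, while for the leukotriene A4 hydrolase gene Lta4h KO mouse 3 was the highest KO mouse, at 11.72. Sucnr1, the succinate receptor of tuft cells and also chosen after its values were seen, stayed between 3.34 and 3.44 in KO mice and between 3.17 and 3.36 in Ctrl mice, below the median of all values.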
